A study of Mus musculus with 24 samples.

Results

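The genes described here carry ammonia and glycine nitrogen through the liver. They are the 5 urea cycle enzyme genes *Cps1*, *Otc*, *Ass1*, *Asl* and *Arg1*, the glutamate and glutamine genes *Glud1* and *Glul*, the glycine cleavage genes *Gldc* and *Gcsh*, and *Shmt1*, which links serine and glycine to folate. Every probe set whose annotated symbol was one of these names was taken, which gave 14 probe sets for 10 genes, out of 12422 probe sets and 8251 genes measured. *Asl*, *Glud1*, *Glul* and *Shmt1* had 2 probe sets each, and the one with the higher mean over all arrays stands for the gene. The probe sets were taken by gene name, whatever their values, but the genes were chosen with earlier results of these data known.

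Liver RNA was measured on Affymetrix U74Av2 arrays in 24 male mice, 1 mouse per array, in 8 groups of 3. The mice were wild-type or PPARα-null, lacking the nuclear receptor PPARα in every cell, and were 9 to 12 weeks old on a mixed SV129/C57BL/6 background. Within each strain the groups were control, heat shock (HS, 40 minutes at 42 °C in the methods and about a degree warmer in the labels), the PPARα agonist WY-14,643 (WY, 500 ppm in the diet for 1 week), and the WY diet followed by HS (WY+HS). The livers were taken 4 hours after HS, and control mice were kept at room temperature on the control diet. The null allele is present from conception, so a strain difference is not one of acute receptor loss.

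As background, the urea cycle turns toxic ammonia into urea. Its first steps, carbamoyl phosphate synthesis by CPS1 and citrulline synthesis by OTC, take place in mitochondria, and ASS1, ASL and ARG1 complete the cycle in the cytosol. The cycle runs mainly in periportal hepatocytes, while the last row of cells around the central vein captures remaining ammonia as glutamine with glutamine synthetase, the product of *Glul*. The glycine cleavage system is a mitochondrial complex in which the decarboxylase GLDC hands the aminomethyl group of glycine to the lipoyl carrier protein GCSH, releasing carbon dioxide and ammonia.

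Values are probe set intensities on a linear scale after quantile normalisation, so that 2 mice in which a probe set had the same rank share a value. Values under 15.7 were set to that floor before log2 was taken. Changes are differences of mean log2 with their standard error (SE), tested with limma across all probe sets with Benjamini-Hochberg adjustment at 0.05. Each mouse is 1 replicate, and the probe sets of different genes cannot be compared in level. *Ppara* itself read 181 to 357 in wild-type and 103 to 210.2 in null livers, and the lowest wild-type value (a mouse given HS) lay within the null range. The summed level of 7 measured hepatocyte markers was 28847 to 36142 over the 24 livers, whereas 2 of 3 bile duct and 4 of 5 leukocyte markers were at the floor in every liver. Skeletal muscle markers summed to 166 to 274 in 21 livers, to 1129 in wild-type control mouse 1, and to 1040.2 and 944 in null HS mice 16 and 17.

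WY lowered 4 of the 5 urea cycle genes in wild-type mice. *Otc* fell 2.46-fold, *Asl* 2.79-fold by the brighter of its 2 probe sets, *Ass1* 1.79-fold and *Cps1* 1.26-fold, while *Arg1*, the last enzyme of the cycle, did not fall. None of the 5 passed the test with WY in null mice. In this comparison 4 of the 14 probe sets were lower and none higher, where 5.19% of all probe sets tested were lower. The median change over the 10 genes was 0.10 (log2), and 6 of the 10 genes did not pass. It was 0 over all genes, many of which lay at the floor, and -0.02 over the 4076 probe sets well above the floor.

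*Otc* encodes ornithine transcarbamylase, which joins ornithine and carbamoyl phosphate. It read 1957, 1883 and 1915 in wild-type control mice and 799, 846 and 702 after WY. All 3 WY mice lay below all controls, and the log2 change was -1.30 (SE 0.09, limma adjusted p = 6.21e-08, with 3 mice in each group here and throughout). In null mice *Otc* read 1776, 2189.6 and 2004 in controls and 2119, 2109.8 and 2096 after WY. Those groups overlapped, with a change of 0.09 (SE 0.09, limma adjusted p = 1). In bulk liver, fewer cells of a type and less RNA per cell cannot be told apart.

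*Asl* encodes argininosuccinate lyase, which releases arginine. Its brighter probe set read 984, 680.0 and 881 in wild-type control mice and 244, 329 and 339 after WY, a change of -1.48 (SE 0.22, limma adjusted p = 2.05e-04). The highest WY mouse was still under the lowest control. The null mice read 1145, 1162 and 1145 in controls and 1112, 979.7 and 1266 after WY, and overlapped (change -0.05, SE 0.22, limma adjusted p = 1). The second *Asl* probe set was dimmer and did not show the fall. It read 152, 104 and 116 in wild-type controls and 132, 165 and 128 after WY, a change of 0.20 (SE 0.26, limma adjusted p = 0.971). The fall of *Asl* thus rests on 1 of its 2 probe sets, and values of *Asl* below are those of the brighter one unless the second is named.

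*Ass1* encodes argininosuccinate synthase, the step that brings in the second nitrogen as aspartate. It read 3755, 3622 and 3350.2 in wild-type controls and 1843, 2291 and 1871 after WY (change -0.84, SE 0.13, limma adjusted p = 2.14e-04). The groups did not overlap. In null mice the controls read 3350.2, 3428 and 2899 and the WY mice 3178, 3126 and 3293 (change -0.01, SE 0.13, limma adjusted p = 1).

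*Cps1* encodes carbamoyl phosphate synthetase, the entry step of the cycle. It read 5709, 5581 and 5396 in wild-type controls and 4083, 4636 and 4491 after WY, again with no overlap, and the change was small (-0.34, SE 0.05, limma adjusted p = 6.78e-05). In null mice *Cps1* read 5581, 5920.2 and 5581 in controls and 5396, 5709 and 5709 after WY (change -0.02, SE 0.05, limma adjusted p = 1). The size of the wild-type fall depended on how the arrays were scaled. It was -0.78 with each array set to a common median, and -0.24 and no longer past the threshold with the values as deposited.

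*Arg1* encodes arginase, which splits arginine into urea and ornithine. It read 3039, 2838 and 2937 in wild-type controls and 3520.5, 3350.2 and 3853 after WY. Every WY mouse lay above every control, but the change of 0.28 (SE 0.09, limma adjusted p = 0.0624) missed the threshold, and it was -0.11 with a common median. In null mice *Arg1* read 3676, 3703 and 3293 in controls and 3479, 3076 and 3404 after WY (change -0.10, limma adjusted p = 1).

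**Figure D1:**
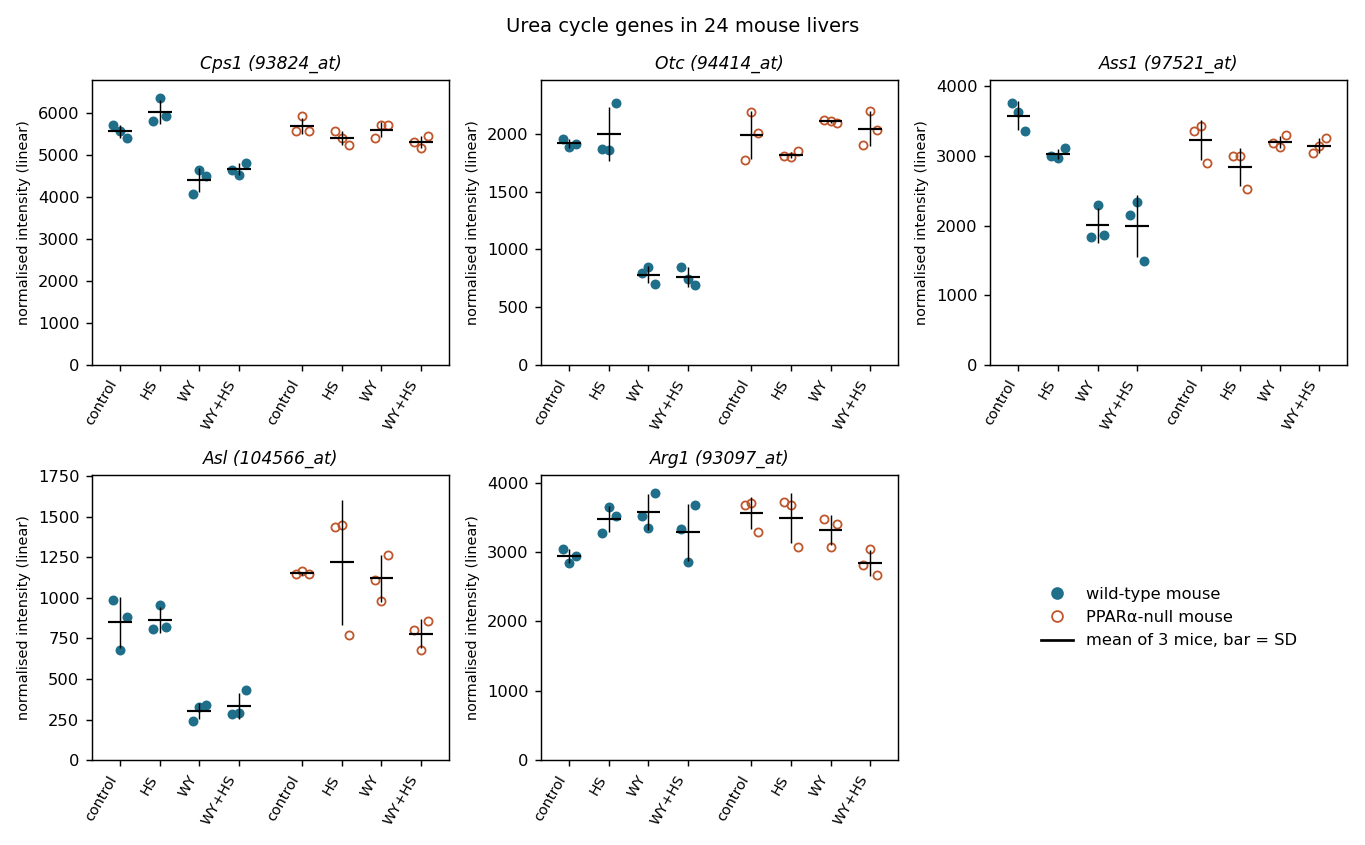
Normalised intensity (linear, from 0) of the 5 urea cycle genes in each of 24 mice, by strain and treatment. Points are mice, horizontal lines the means of 3 and vertical lines their SD; *Otc*, *Ass1*, *Asl* and *Cps1* sit lower in the wild-type WY and WY+HS mice than in wild-type controls, and *Arg1* does not.

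The strain difference of the WY effect was tested directly. The WY by genotype interaction, the change in null minus the change in wild-type mice, was 1.39 for *Otc* (SE 0.13, limma adjusted p = 4.63e-06). For *Asl* it was 1.43 (SE 0.31, limma adjusted p = 0.0104), for *Ass1* 0.83 (SE 0.18, limma adjusted p = 0.00927) and for *Cps1* 0.32 (SE 0.06, limma adjusted p = 0.00612). The second *Asl* probe set gave -0.21 (SE 0.37, limma adjusted p = 1), the opposite sign. These 4 of 14 probe sets were called higher, against 2.19% of all probe sets. The interaction of *Arg1* was -0.38 (SE 0.13, limma adjusted p = 0.121) and that of *Glul* -1.80 (SE 0.64, limma adjusted p = 0.14), both short of the threshold. With the values as deposited, without scaling, *Ass1* was the 1 member whose interaction passed. The *Cps1* interaction also lost its call with a common median, on an asinh scale without a floor, and without the dimmest 30% of probe sets.

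Among WY-fed mice the same 4 enzymes stood higher in the null strain, *Asl* by 1 of its 2 probe sets. This contrast, WY against control and the WY interaction share the wild-type WY mice, so their calls are not separate results. *Otc* was 2.70-fold, *Asl* 3.70-fold, *Ass1* 1.61-fold and *Cps1* 1.27-fold higher in null than in wild-type WY livers (limma adjusted p = 1.09e-08, 1.38e-05, 0.00127 and 4.1e-05), where 6.38% of all probe sets were higher. The second *Asl* probe set read 142 on average in both strains (change -0.01, limma adjusted p = 1). *Gcsh* was 1.30-fold lower (limma adjusted p = 0.00342), where 6.65% of all probe sets were lower. Without scaling of the arrays *Cps1* (0.09, log2) and *Ass1* (0.32) were no longer called in this contrast. *Gcsh* lost its call when only the arrays compared were fitted. In control mice the strains did not differ for any of the 14 probe sets past the threshold (0.845% of all probe sets were called). Of all 12422 probe sets 1249 stood at an unadjusted p under 0.05, and of the 14, 2 did. These were *Arg1*, at 3557 ± 229 in null against 2938 ± 100.3 in wild-type controls (mean ± SD, n = 3), and *Gcsh*, at 404 ± 7.03 against 469 ± 24.3.

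The 4 enzymes were also low in wild-type mice given HS after WY. In wild-type WY+HS mice *Otc* read 853, 743 and 691, *Asl* 285, 289 and 430.0, and *Ass1* 2145, 2345 and 1496. Each of these values was below every wild-type control of its gene. The changes from control were -1.34 for *Otc* (SE 0.09, limma adjusted p = 3.98e-08), -1.35 for *Asl* (SE 0.22, limma adjusted p = 4.68e-04), -0.87 for *Ass1* (SE 0.13, limma adjusted p = 1.58e-04) and -0.26 for *Cps1* (SE 0.05, limma adjusted p = 9.88e-04). These are 4 of 14 probe sets, against 5.38% lower among all probe sets. The same 4 genes were called with WY and with WY+HS, and both comparisons share the control mice. The second *Asl* probe set gave -0.16 (SE 0.26, limma adjusted p = 1). *Asl* and *Ass1* lost the call when only the 6 mice compared were fitted, and *Cps1* lost it under 3 other settings.

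WY+HS against WY alone in wild-type mice called none of the 14 probe sets by limma, where 0.427% of all probe sets were called. None of the 14 stood at an unadjusted p under 0.05 either, where 1023 of the 12422 probe sets did. The 95% interval of that difference ran from -0.23 to 0.16 (log2) for *Otc*, from -0.29 to 0.25 for *Ass1* and from -0.34 to 0.60 for *Asl*. Without scaling the arrays, 4 members (*Otc*, *Ass1*, *Asl* and *Shmt1*) were called in this comparison, and the median of the bright probe sets then moved by -0.68.

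Otc and Ass1 fell together with WY, and the 250 bases before their RefSeq starts are printed to show how different these promoters are. The sequences are RefSeq's, build GRCm38.p6, for Otc chrX:10252055-10252304 on the + strand and for Ass1 chr2:31470020-31470269 on the + strand, each 5′ to 3′. The 5 motifs searched were read on both strands: AGGTCA (nuclear receptor half-site), GAANNTTC (heat shock element core), TTNNGNAA (a loose C/EBP consensus), CCAAT and TATAAA. Capitals mark every match to any of them.
Otc: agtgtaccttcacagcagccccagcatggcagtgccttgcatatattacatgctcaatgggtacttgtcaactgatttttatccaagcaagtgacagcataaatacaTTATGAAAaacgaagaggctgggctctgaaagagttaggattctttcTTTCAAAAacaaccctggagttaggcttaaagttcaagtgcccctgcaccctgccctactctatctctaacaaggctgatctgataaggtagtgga
Ass1: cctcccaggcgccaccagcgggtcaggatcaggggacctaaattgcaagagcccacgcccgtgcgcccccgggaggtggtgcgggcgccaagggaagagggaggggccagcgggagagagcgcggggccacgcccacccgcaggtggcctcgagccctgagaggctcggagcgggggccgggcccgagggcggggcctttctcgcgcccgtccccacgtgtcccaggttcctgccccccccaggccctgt
The Otc window was 43.6% G or C with 1 CpG, and the Ass1 window 75.6% with 23 CpG, where the median of 32851 promoter windows was 52.4% and 6 CpG. Both capitalised stretches of Otc match TTNNGNAA, starting at -143 on the + strand and -96 on the - strand, with -1 the base just before the start. This motif was held by 36.8% of all windows. No match was found in the Ass1 window, which says only that these letters are not there. The promoter table matched 7 of the 10 genes.

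HS lowered the glycine cleavage genes in null mice. *Gldc* fell 8.31-fold and *Gcsh* 1.62-fold at 4 hours after HS, while *Shmt1* and all urea cycle genes did not pass the test. In this comparison 2 of 14 probe sets were lower, where 3.89% of all probe sets were lower. In wild-type mice HS called none of the 14 by limma, where 0.0403% of all probe sets were called. An unadjusted p under 0.05 was reached by 2 of the 14, *Cps1* (change 0.12) and *Arg1* (change 0.24), and by 665 of the 12422 probe sets.

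*Gldc* read 314, 366 and 174 in null control mice and 59.2, 3.42 and 37.3 after HS. All 3 HS mice were below all controls, and mouse 17, at 3.42, was set to the floor of 15.7 for the test. The change was -3.06 (SE 0.41, limma adjusted p = 2.62e-04). Its size depends on the floor, and it ran from -2.68 to -3.79 over the alternatives to the processing and was -2.53 without mouse 17. As deposited, before scaling, the HS mice read 55.0, 2.20 and 43.6 and the controls 242, 292.5 and 166. The call was lost when only the 6 mice compared were fitted. In wild-type mice *Gldc* read 291, 395 and 248 in controls and 340.1, 416 and 282 after HS, with overlapping groups (change 0.16, SE 0.41, limma adjusted p = 1).

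*Gcsh* read 411, 405 and 397 in null controls and 233, 260.1 and 254 after HS. The groups were further apart than either spread, and the change was -0.70 (SE 0.08, limma adjusted p = 6.15e-05). In wild-type mice it read 448, 496 and 463 in controls and 449, 418 and 478 after HS (change -0.07, SE 0.08, limma adjusted p = 1). Without scaling of the arrays the change in null mice was -0.68 and no longer passed.

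*Shmt1*, the cytosolic serine hydroxymethyltransferase gene, read 413, 429 and 451 in null controls and 584, 414 and 309 after HS, values that lie on both sides of the controls (change -0.03, SE 0.17, limma adjusted p = 1). Over the wild-type groups it read between 438 and 640.5, with the 3 WY mice at 604, 531 and 640.5 above the controls at 438, 519 and 467 (change 0.32, SE 0.17, limma adjusted p = 0.341). Its second probe set was at the floor in 21 of 24 mice.

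**Figure D2:**
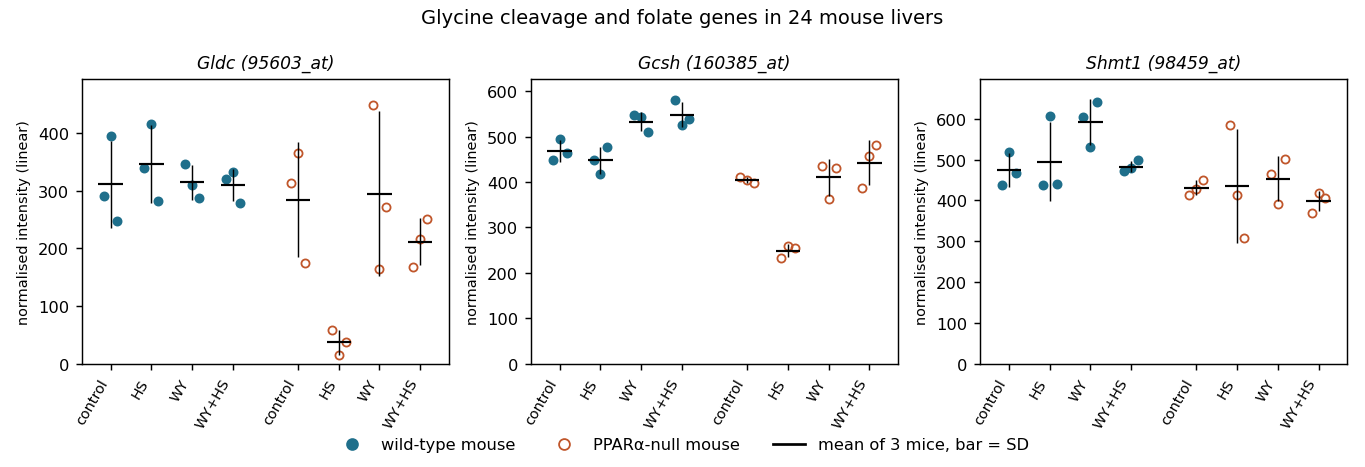
Normalised intensity (linear, from 0, values under 15.7 drawn at 15.7) of *Gldc*, *Gcsh* and *Shmt1* in each of 24 mice, by strain and treatment, with the mean of 3 mice and SD. The null HS mice sit lowest for *Gldc* (mean 37.4) and *Gcsh* (mean 249), and the null WY+HS mice do not.

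The HS by genotype interaction was -3.22 for *Gldc* (SE 0.58, limma adjusted p = 0.0103) and -0.63 for *Gcsh* (SE 0.11, limma adjusted p = 0.0091). These were 2 of 14 probe sets, against 0.942% lower among all probe sets. Neither passed without scaling, and each also lost its call under other settings given in the closing section. Among heat-shocked mice, null livers had 10.5-fold less *Gldc* and 1.80-fold less *Gcsh* than wild-type livers (limma adjusted p = 3.88e-05 and 2.98e-06). The *Gldc* fold was computed with mouse 17 at the floor, and the difference of -3.39 (log2) ran from -3.02 to -4.12 over the alternatives to the processing and was -2.86 without that mouse. *Glud1* and *Cps1* were also called lower there, at 617 ± 52.5 against 904 ± 57.0 and at 5406 ± 171 against 6029 ± 285 (limma adjusted p = 0.0443 and 0.027), which makes 4 of 14 against 7.69% lower among all probe sets. The *Glud1* call was lost when any 1 of the 6 mice was left out (adjusted p then above 0.05 each time), also on the asinh scale and with the methods' test. The *Cps1* call was lost in 9 of 16 alternatives, among them a common median, the methods' test and leaving out mouse 5, 17 or 18.

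WY before HS went with higher glycine cleavage genes in the null strain. In null WY+HS mice *Gldc* read 168, 216 and 251 and *Gcsh* 387, 458 and 483, all above every null HS mouse. Against HS alone, *Gldc* was higher by 2.68 (log2; SE 0.41, limma adjusted p = 5.07e-04) and *Gcsh* by 0.82 (SE 0.08, limma adjusted p = 7.23e-06), 2 of 14 against 6.05% higher among all probe sets. *Arg1* was lower, at 2809, 3039 and 2672 against 3727, 3676 and 3076 (change -0.30, SE 0.09, limma adjusted p = 0.0477), where 5.14% of all probe sets were lower. The *Arg1* call was lost in 12 of 16 alternatives, among them leaving out mouse 16, 17, 22 or 24, which gave -0.25 to -0.29. When only the 6 mice compared were fitted, none of the 3 genes passed. The *Gldc* and *Gcsh* calls here, for HS against control, for the HS interaction and between heat-shocked strains all use the same null HS mice. They are therefore not separate results.

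WY without HS did not pass the test for any member in null mice, where 0.00805% of all probe sets were called. At an unadjusted p under 0.05 stood 2 of the 14 probe sets, the second ones of *Glul* (-0.59) and *Shmt1* (0.61), and 429 of all 12422. *Gldc* read 449, 165 and 272 and *Gcsh* 436, 364 and 431 in null WY mice, overlapping their controls (changes 0.00 and 0.02). Null WY+HS against null control also called none by limma (0.0161% of all probe sets were called). *Arg1* (change -0.32), *Asl* (-0.57) and *Cps1* (-0.10) stood at an unadjusted p under 0.05 in it, as did 610 of the 12422 probe sets. *Asl* read 800.5, 681 and 856 there, below the 3 null controls. In the comparisons with no member called by limma, the methods' test (an F test followed by Scheffe's test) called none either.

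Gldc and Gcsh fell together with HS in null mice, and their promoter windows are printed in the same way. They are RefSeq's, build GRCm38.p6, 5′ to 3′ on the gene's strand, for Gldc chr19:30175442-30175691 and for Gcsh chr8:116993499-116993748, both on the - strand. Capitals mark matches to the same 5 motifs.
Gldc: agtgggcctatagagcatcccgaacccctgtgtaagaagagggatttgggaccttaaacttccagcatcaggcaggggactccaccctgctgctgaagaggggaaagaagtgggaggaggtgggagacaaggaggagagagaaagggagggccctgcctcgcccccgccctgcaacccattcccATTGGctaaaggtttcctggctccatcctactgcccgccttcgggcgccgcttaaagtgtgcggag
Gcsh: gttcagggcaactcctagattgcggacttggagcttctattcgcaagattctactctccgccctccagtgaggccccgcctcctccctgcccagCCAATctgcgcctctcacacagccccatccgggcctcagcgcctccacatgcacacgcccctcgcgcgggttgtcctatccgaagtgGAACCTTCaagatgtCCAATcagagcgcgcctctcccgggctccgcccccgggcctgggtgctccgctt
Gldc held 1 CCAAT match, on the - strand at -66, and Gcsh held 2, at -156 and -54 on the + strand. CCAAT was held by 33.8% of all windows. Gcsh also held 1 match to GAANNTTC, at -69, a motif held by 6.69% of all windows, and Gldc held none. Neither window held AGGTCA (14.0% of windows), TTNNGNAA or TATAAA (12.4%).

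Neither gene of glutamate and glutamine passed the test in any treatment comparison, and *Glul* varied widely between mice of 1 group. *Glul*, the glutamine synthetase gene, read 282, 246 and 533 in wild-type controls and 739, 579 and 683 after WY. All 3 WY mice lay above the controls, and the change of 0.99 (SE 0.45, limma adjusted p = 0.224) did not pass. In null mice the controls read 276, 561 and 1244, a span that covers most of the other livers, and the HS mice 1103, 759 and 1343 (change 0.85, SE 0.45, limma adjusted p = 0.345). Leaving out null control mouse 13 gave 0.32 and leaving out mouse 15 gave 1.402. Among the null groups the WY mice were the most alike, at 294, 329 and 372, and the null WY+HS mice read 885, 683 and 362.

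The second *Glul* probe set did not follow the first. It read 199.5, 301 and 334 in wild-type controls and 329, 199 and 303 after WY, a change of 0.00 (SE 0.23, limma adjusted p = 1). With HS in null mice it went from 291, 234 and 321 to 226, 221 and 180.3 (change -0.43, SE 0.23, limma adjusted p = 0.352), the opposite sign to the brighter probe set. With 2 probe sets that disagree, no direction is given for *Glul*.

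*Glud1*, the gene for mitochondrial glutamate dehydrogenase, which releases ammonia from glutamate, spanned 484 to 1006 over all mice. Its wild-type group means were 763 to 904 and its null group means 617 to 778, with overlapping mice in most pairs of groups. None of its treatment comparisons passed. Its second probe set was at the floor in all 24 mice.

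**Figure D3:**
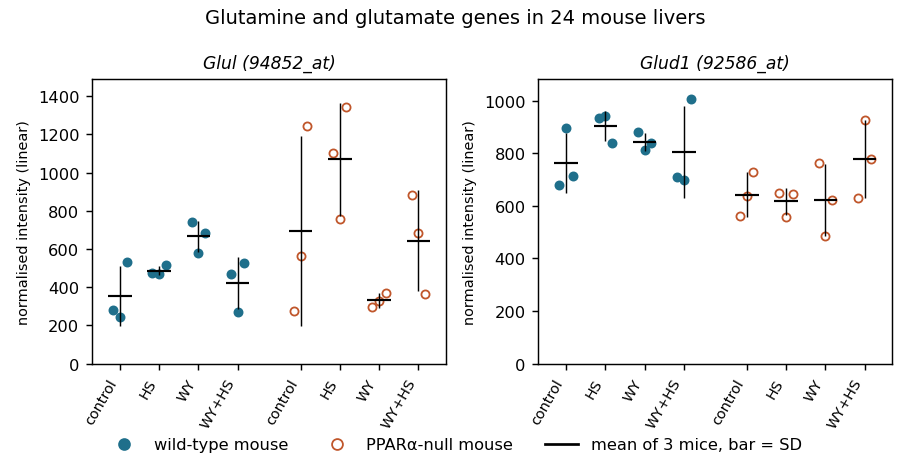
Normalised intensity (linear, from 0) of *Glul* and *Glud1* (brighter probe sets) in each of 24 mice, by strain and treatment, with the mean of 3 mice and SD. The 3 null control mice span 276 to 1244 for *Glul*, so that the treated null mice fall within or close to the range of their controls.

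**Figure D4:**
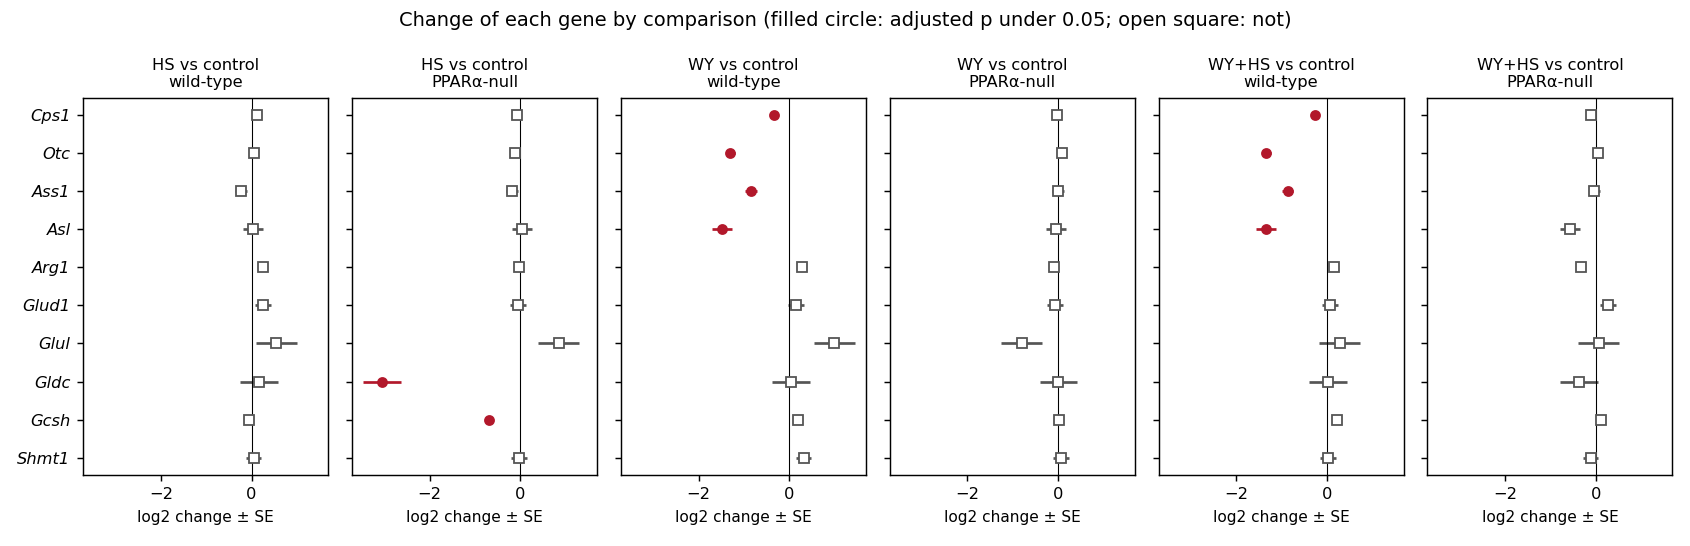
Change of each of the 10 genes (log2, with SE) against the control mice of the same strain, for HS, WY and WY+HS in both strains. Filled circles passed an adjusted p of 0.05 (limma, 3 mice per group); the 4 lower urea cycle genes appear with WY and WY+HS in wild-type mice, and *Gldc* and *Gcsh* with HS in null mice.

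Ordered by group mean, the levels show which groups stood apart. For *Otc* the wild-type WY and WY+HS means (782 and 762) did not differ beyond their SD, and the next group, null HS at 1818, was 1036 higher with no overlap. The other 6 *Otc* means lay between 1818 and 2108. *Asl* ranged 4.01-fold between its lowest group (wild-type WY, 304) and its highest (null HS, 1219), and its wild-type WY and WY+HS means likewise lay within 1 SD of each other. *Gldc* had the widest range, 9.25-fold, between null HS (37.4) and wild-type HS (346), and the other 7 group means lay between 212 and 346, each overlapping its neighbour in the order. *Gcsh* ranged 2.20-fold, from null HS (249) to wild-type WY+HS (549). The narrowest ranges were those of *Arg1*, 1.26-fold, and *Cps1*, 1.37-fold.

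Over the 8 group means the log2 levels of the 4 WY-lowered enzymes followed one another. *Otc* correlated with *Ass1* at r = 0.96, with *Asl* at 0.95 and with *Cps1* at 0.93, while *Otc* with *Arg1* gave -0.27 and *Otc* with *Gldc* -0.21. These are descriptions over 8 points that share arrays, with the wild-type WY and WY+HS groups apart from the other 6 for these enzymes. The 4 enzymes are grouped because they fell with WY in wild-type mice. A high r among them follows in part from that choice and is no separate result. Over 3282 other genes with 1 symbol and a mean well above the floor, those whose group means followed *Otc* most closely were *Ifitm3*, *Slc37a4* and *Apof* (r = 0.9988, 0.9916 and 0.9913). For *Asl* they were *Yju2*, *Rbbp4* and *Top1* (0.9914, 0.985 and 0.9837), and for *Gldc* they were *Dpy30*, *Hnf4a* and *Lman2* (0.9883, 0.9829 and 0.9825). The *Gldc* values rest mainly on the null HS group, which stood apart from the others. For *Glul*, by the brighter of its probe sets that disagree, the closest were *Invs*, *Cops9* and *Cox4i1*, with r of 0.9416, 0.9251 and 0.9101.

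Other genes of nitrogen and one-carbon metabolism, with hormone receptors and transcription factors that act on such genes, were taken from 6 lists of 85 genes, of which 51 were measured and 48 read above the floor in at least 1 mouse. With WY in wild-type mice 12 of the 51 were lower and 4 higher (6.12% and 6.73% of all genes, each by its brightest probe set). The median change of the 51 was -0.13, against 0 over all genes and -0.02 over the probe sets well above the floor. With HS in null mice 8 were lower and 3 higher (4.5% and 3.45% of all genes). The receptor and transcription factor list, 11 of the 51, held 2 of the 12 lower and none of the 4 higher with WY, and 1 of the 8 lower and 2 of the 3 higher with HS. HS in wild-type mice changed none of the 51 by limma, with 7 at an unadjusted p under 0.05, where 665 of the 12422 probe sets were.

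Some glycine and one-carbon genes fell in each of these comparisons. Of 10 measured, WY in wild-type mice lowered *Sardh* (sarcosine dehydrogenase, change -1.38, limma adjusted p = 4.36e-07), *Gnmt* (glycine N-methyltransferase, -1.04, limma adjusted p = 3.45e-06) and 1 more. It raised *Dld*, the dihydrolipoamide dehydrogenase that the glycine cleavage system shares with other complexes (0.58, limma adjusted p = 9.08e-04), and *Psph* of serine synthesis (0.91, limma adjusted p = 0.0264). HS in null mice lowered *Dmgdh* (dimethylglycine dehydrogenase, -0.79, limma adjusted p = 0.0069), *Sardh* (-0.56, limma adjusted p = 0.00745) and *Gnmt* (-0.39, limma adjusted p = 0.0319), and these 3 were higher in null WY+HS than in null HS mice (0.96, 0.62 and 0.34), 3 of 10 where 7.03% of all genes were higher. *Dmgdh* also differed between strains in its HS effect (interaction -1.05, limma adjusted p = 0.0298). The null HS results and the WY+HS contrast all use the same null HS mice, so they are not separate results.

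In the list of urea cycle carriers, cofactor and isoform genes, 4 of 8 were measured. *Slc7a2*, a cationic amino acid transporter that brings arginine into cells, fell with WY in wild-type mice (-0.87, limma adjusted p = 9.99e-04) and with HS in null mice (-0.53, limma adjusted p = 0.0446). None of 8 glutamine, proline and transaminase genes passed with WY in wild-type mice by limma. Of these 8, 1 stood at an unadjusted p under 0.05, as did 2428 of the 12422 probe sets. *Oat* (ornithine aminotransferase) did fall with WY+HS in wild-type mice (-0.90, limma adjusted p = 0.00223). With HS in null mice 1 of the 8 was called, *Asrgl1* (-0.36), which reads close to the floor.

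Among 7 methionine and cysteine genes, WY in wild-type mice lowered *Cdo1* (cysteine dioxygenase, -0.67, limma adjusted p = 8.14e-04), *Gamt* and *Gatm* of creatine synthesis (-1.14 and -0.67, limma adjusted p = 0.00251 and 0.0141) and 1 more, and raised *Csad* of taurine synthesis by 1.99 (limma adjusted p = 0.00119). Of 11 aromatic, histidine and lysine degradation genes, *Hal* (histidine ammonia-lyase, -1.17, limma adjusted p = 1.5e-05) and *Fah* (-0.47, limma adjusted p = 4.09e-07) fell and *Pcbd1* rose (0.29, limma adjusted p = 0.00999). With HS in null mice *Gamt* fell in the first list (-0.85, limma adjusted p = 0.0291), and *Pcbd1* fell (-0.37, limma adjusted p = 0.00294) and *Aass* rose (0.46, limma adjusted p = 0.0371) in the second.

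Of 11 hormone receptor and transcription factor genes known to act on amino acid enzyme genes, *Cebpa* (-0.62, limma adjusted p = 0.00576) and the glucagon receptor gene *Gcgr* (-0.44, limma adjusted p = 0.0111) were lower with WY in wild-type mice. With HS in null mice *Hnf4a*, a nuclear receptor of hepatocyte identity, was lower (-1.76, limma adjusted p = 0.0119), and *Gcgr* (0.37, limma adjusted p = 0.0415) and *Creb1* (0.54, limma adjusted p = 0.0362) were higher. *Creb1* reads close to the floor, at 24.5 after HS.

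**Figure D5:**
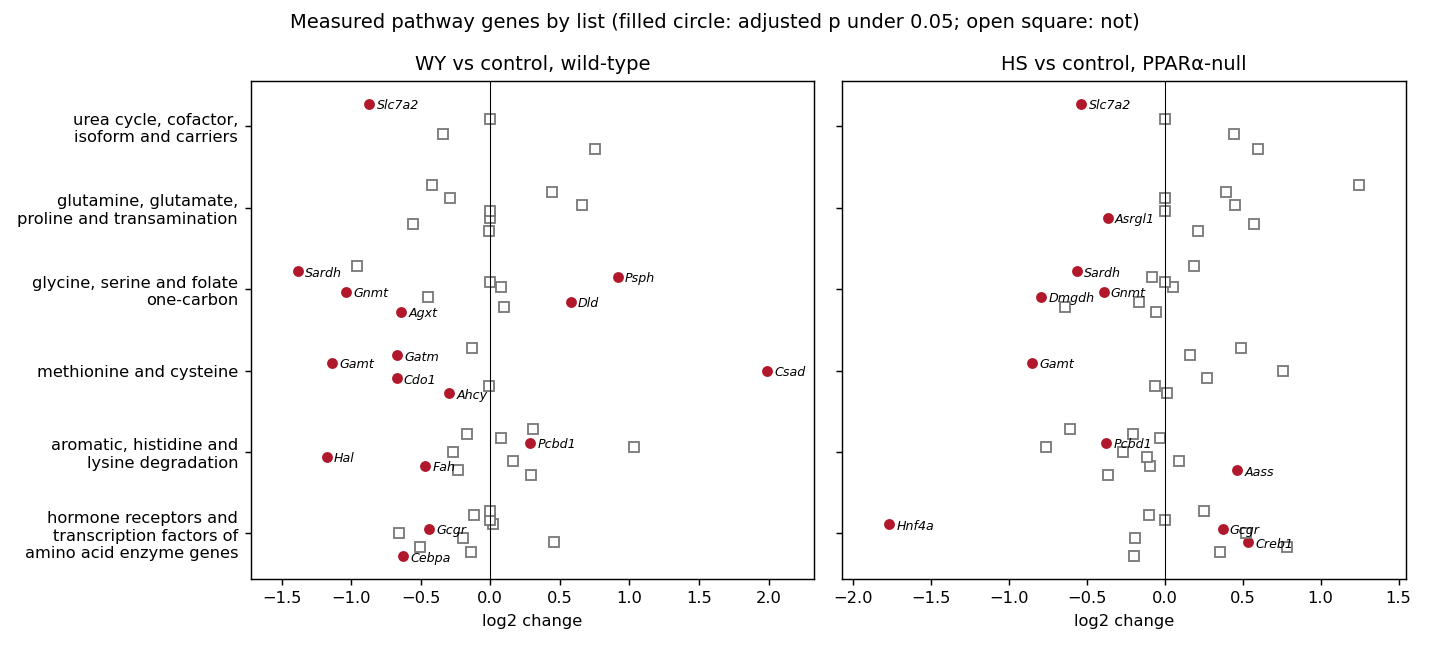
Change (log2) of the 51 measured genes of 6 lists (5 of nitrogen and one-carbon metabolism, 1 of receptors and transcription factors) with WY in wild-type mice (left) and HS in null mice (right), 1 symbol per gene. Filled circles with a name passed an adjusted p of 0.05 (limma); 12 lie left of 0 and 4 right with WY, and 8 left and 3 right with HS.

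Markers of liver cells moved beside these results. Over all genes, 6.12% were lower with WY in wild-type mice, and 2428 of the 12422 probe sets stood at an unadjusted p under 0.05. With WY in wild-type mice 4 of 7 measured hepatocyte markers also fell (*Ttr*, *Ahsg*, *Ambp* and *Apoh*), and their list summed to 29530 to 30459 in WY livers and 33913 to 35046 in controls. The periportal list without the urea cycle genes had 2 of 4 lower (*Hal* and *Sult5a1*), summing to 3362 to 4058 in WY livers against 4493 to 5384 in controls, and the pericentral list 2 of 7 lower (*Cyp1a2* and *Lect2*), with sums of 10122 to 11454 against 12728 to 13359. The endothelial, stellate cell, leukocyte and Kupffer cell lists were lower too, without overlap between the groups. Erythroid sums overlapped (1603 to 2432 against 2048 to 2740), as did skeletal muscle sums (205 to 234 against 189 to 1129). Bile duct sums were 47.2 in both groups. The leukocyte sums vary by 1 marker, as the other 4 were at the floor in every liver. Of 6 endothelial markers *Kdr* fell (sums of 152 to 182 against 242 to 294), of 7 stellate cell and fibroblast markers *Dcn* fell (1048 to 1246 against 1347 to 1627), and of 5 leukocyte markers *Cd79a* fell (78.7 to 102 against 132 to 164). None of 9 Kupffer cell and macrophage markers passed by limma (1 at an unadjusted p under 0.05), at sums of 469 to 650.1 against 705 to 900.2. Wild-type WY+HS livers had hepatocyte sums of 28847 to 29619. Leaving out wild-type control mouse 1, with muscle signal, gave -1.28 for *Otc*, -0.81 for *Ass1*, -1.36 for *Asl* and -0.32 for *Cps1*. The part of these shifts in the urea cycle result was not tested.

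With HS in null mice 4 of 7 stellate cell and fibroblast markers rose (*Col1a1*, *Col3a1*, *Des* and *Pdgfrb*), with list sums of 1798 to 2291 in HS livers and 1304 to 1494 in controls. Over all genes, 3.45% were higher and 4.5% lower in this comparison, and 2239 of the 12422 probe sets stood at an unadjusted p under 0.05. Of 6 endothelial markers 2 rose (*Vwf* and *Cdh5*), with sums of 259 to 269.8 against 162 to 197. None of the 7 hepatocyte markers changed past the threshold by limma (3 at an unadjusted p under 0.05), at sums of 32603 to 34828 against 34876 to 35701. Of the 4 periportal markers *Sult5a1* fell, and the list had a median change of -0.47 and sums of 3719.5 to 5042 against 5797.5 to 6506, with no overlap. The 3 erythroid markers summed to 2241 to 2943 against 1167 to 2172, also with no overlap, and none passed by limma (2 at an unadjusted p under 0.05). None of the 7 skeletal muscle markers passed by limma (3 at an unadjusted p under 0.05), at sums of 193 to 1040.2 against 193 to 269. Leaving out null HS mouse 16 or 17, those with muscle signal, gave -3.48 and -2.53 for *Gldc* and -0.65 and -0.73 for *Gcsh*, all past the threshold. Each of these fits kept the other mouse with muscle signal, so neither shows the HS change without it. The part of these shifts in the glycine cleavage result was not tested.

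Null WY+HS against null HS livers also differed in these lists. Over all genes 7.03% were higher, and over all probe sets 5.14% were lower. Of the 12422 probe sets 2691 stood at an unadjusted p under 0.05. Of 7 stellate cell and fibroblast markers 3 were lower (median change -0.58, sums of 1517.5 to 1549 against 1798 to 2291), as were 1 of 6 endothelial markers (*Vwf*, sums of 254 to 268 against 259 to 269.8) and 1 of 3 erythroid markers (*Slc4a1*, 1978 to 2123 against 2241 to 2943). Of 4 periportal markers *Sult5a1* was higher and *Hal* lower (5070 to 5466 against 3719.5 to 5042), and of 7 hepatocyte markers *Apoh* was higher. No skeletal muscle marker passed by limma, but 5 of 7 stood at an unadjusted p under 0.05 (median change -1.55, sums of 178 to 247 against 193 to 1040.2). Without null HS mouse 16 or 17 the difference was 3.11 and 2.15 for *Gldc* and 0.78 and 0.85 for *Gcsh*, all past the threshold. Here too each fit kept the other mouse with muscle signal. The part of these shifts was not tested.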

How the data were processed

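Per the labels and the study's methods, the authors scanned the arrays with GCOS, processed them in Rosetta Resolver and deposited linear intensity values. The sources used here do not state how probe pairs were summarised or whether the arrays were scaled. Of 12488 probe sets 66 held no value, and 24.1% of the values were at or below 0. Probe sets were named through the platform annotation: 10833 had 1 symbol, 396 several and 1193 none. The intensities were quantile normalised, set to a floor of 15.7 (the size of the 10th percentile, which is negative) and taken to log2, after which 42.9% of the values and 2996 whole probe sets lay at the floor. Array medians ran from 15.2 to 40.5 before scaling. The part of this spread in the precision of dim genes was not tested.

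The 8 group means were fitted with limma 3.58.1 in R 4.3.3 (16 residual degrees of freedom), and 13 contrasts were adjusted by Benjamini-Hochberg over 12422 probe sets at 0.05. All 10 genes are named, with up to 4 called genes per list and comparison by smallest adjusted p (the plot of the lists names every one called), and the 3 most similar genes for the 4 members with the widest range. The genes and lists were chosen with earlier results of these data known. The fit was tested on simulated data. Alternatives were a common median, no scaling, other floors, an asinh scale, array weights, trend and robust moderation, a filter on dim probe sets, a fit of only the arrays compared, other probe sets, leaving out each mouse, and the methods' test (an F test, then Scheffe's test).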

Additional observations from a re-analysis of the deposited data

Results flagged for a closer look

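A treatment effect differed between the strains, by the interaction term in limma, for 6 of the 10 genes. Over all probe sets, 2.19% were called higher in the WY interaction and 0.942% lower in the HS interaction. Without scaling of the arrays only *Ass1* kept its interaction call. For WY, null minus wild-type, the difference of the changes (log2) was 0.316 for *Cps1*, 1.387 for *Otc*, 0.8342 for *Ass1* and 1.432 for *Asl*, with adjusted p-values of 0.00612, 4.63e-06, 0.00927 and 0.0104. The second *Asl* probe set gave -0.2094 and did not pass. In all 4 genes, *Asl* by its brighter probe set, the 3 wild-type WY mice lay below the 3 wild-type controls, and the null WY mice overlapped theirs. For HS it was -3.216 for *Gldc* and -0.6334 for *Gcsh*, with adjusted p-values of 0.0103 and 0.0091. In both, the 3 null HS mice lay below the 3 null controls while the wild-type groups overlapped. Groups of 3 mice were too small to test for single outlying mice, but each mouse was left out in turn. Null HS mice 16 and 17, which enter the *Gldc* and *Gcsh* terms, carried skeletal muscle signal.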

How the results depend on the processing

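Of 599 values for 34 changes of single genes under the alternatives, 535 kept their direction and side of the threshold, 55 kept the direction and lost the call, 3 gained it, 3 reversed and 3 moved without a call. The 3 reversals are the second *Asl* probe set, at 0.201 for WY in wild-type mice, -0.01179 for null against wild-type WY mice and -0.2094 for the WY by genotype interaction. The causes of the changes below were not tested. Counts of called members changed by more than 1.5 times as follows. Without scaling, the wild-type contrast of WY+HS with WY called 4, HS in null mice 1, WY+HS against HS in null mice 1, the HS interaction 0 and the WY interaction 1. With the fit limited to the arrays compared, WY+HS in wild-type mice called 2, HS in null mice 1, WY+HS against HS in null mice 0 and the HS interaction 1. Null against wild-type HS mice called 2 on the asinh scale and with the methods' test, and between 2 and 3 when 1 mouse was left out; the 2 remaining without wild-type mouse 5 or null mouse 17 compare with 4 in all mice. Null against wild-type WY mice called 8 with array weights. The HS interaction called 1 with the floor at the 20th percentile and 1 on the asinh scale. Smaller changes of counts were also seen. The WY interaction and WY+HS in wild-type mice called 3 instead of 4, without *Cps1*, with a common median, on the asinh scale and without dim probe sets. WY in wild-type mice called 3 without scaling and 5 with array weights, and HS in null mice 3 with a common median (*Otc* added). WY+HS against HS in null mice called 4 with array weights and 2 with 5 other settings, where 3 were called, and 2 to 4 when 1 mouse was left out. Null against wild-type HS mice called 3 in 2 settings and 6 without scaling. Null against wild-type WY mice called 4 without scaling (*Otc*, *Asl*, *Gcsh* and *Shmt1*), where 5 were called, and up to 6 when 1 mouse was left out. The WY interaction called 5 with array weights or without null control mouse 13. Scaling also moved the balance of all calls. Of those for HS in null mice 45.0% were higher after quantile normalisation, 29.6% with a common median and 68.0% without scaling, and for WY in wild-type mice 51.8%, 42.8% and 90.0%. The median of bright probe sets moved by -0.13 for HS in null mice with a common median and by up to -0.68 without scaling. Signal over background limits *Gldc* in null HS mice, the second probe sets of *Glud1* and *Shmt1*, and any small change of a dim gene. The second *Asl* probe set was dimmer than the first but above the floor in every mouse, at 85.3 to 199. No paired analysis was possible because the labels give every mouse a number of its own.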
